A study of Rattus norvegicus with 4 samples.

Results

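The genes described are the class II chains of the rat major histocompatibility complex (MHC), RT1-Ba, RT1-Bb, RT1-Da and RT1-Db1, and the invariant chain Cd74. They were taken as the entries of a liver gene table whose symbol equals 1 of these 5 names, and each name matched 1 entry, so that 5 of 32545 listed genes are members. RNA sequencing was done on rat liver in 4 libraries, 2 of forced activity and 2 of forced activity plus sleep restriction. All 4 libraries therefore come from rats under forced activity, in which animals are kept moving, and the restriction of sleep is what the groups do not share. Strain, sex, age and the number of rats in a library are not given in the sources used here. Nothing in the labels says that the libraries come from separate animals, so p-values measure the spread between these libraries, which may be technical.

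MHC class II molecules display peptides from taken-up material to CD4+ T cells. An alpha and a beta chain pair in the endoplasmic reticulum with the invariant chain, which Cd74 encodes, and which fills the peptide groove and steers the complex to endosomes. Cathepsins trim the invariant chain there, and the DM molecule exchanges its last fragment for peptide. Transcription depends on the RFX complex, CREB and NF-Y, which sit in this order on the X, X2 and Y boxes before the gene start and recruit the coactivator CIITA. In liver, class II is known from resident macrophages (Kupffer cells), dendritic cells, B cells and sinusoidal endothelium more than from hepatocytes. RT1-B is the rat counterpart of human HLA-DQ and RT1-D that of HLA-DR, with "a" and "b" naming the alpha and the beta chain.

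The stretches before the gene starts are shown because these 5 genes are known as targets of the same X and Y box factors. RefSeq windows of assembly GRCr8, from 250 bases before to 50 bases after the gene start, were found for all 5 genes. They were searched on both strands for exact matches to the Y box core GATTGG, the X box core AGCAAC and the X2 box core CGTCA, none of which contains another. Capitals mark a match on either strand in the stretches below, each written 5′ to 3′ on the gene's own strand. RT1-Ba lies at chr20:4576963-4577033 on the plus strand, RT1-Bb at chr20:4604160-4604230 on the minus strand, RT1-Da at chr20:4515315-4515385 on the plus strand, RT1-Db1 at chr20:4560223-4560293 on the minus strand and Cd74 at chr18:56527105-56527185 on the plus strand.
RT1-Ba: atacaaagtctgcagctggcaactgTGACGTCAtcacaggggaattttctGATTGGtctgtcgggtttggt
RT1-Bb: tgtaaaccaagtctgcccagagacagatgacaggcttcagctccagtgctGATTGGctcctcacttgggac
RT1-Da: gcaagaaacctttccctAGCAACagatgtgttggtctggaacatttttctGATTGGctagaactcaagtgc
RT1-Db1: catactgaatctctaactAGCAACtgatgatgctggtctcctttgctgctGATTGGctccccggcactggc
Cd74: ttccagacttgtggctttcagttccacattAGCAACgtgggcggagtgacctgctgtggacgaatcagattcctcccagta

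All 4 chain genes held the Y box core on their own strand, and RT1-Da and RT1-Db1 held the X box core before it. The first bases of the X and Y cores stood 33 bases apart in RT1-Da and 32 in RT1-Db1. RT1-Ba held the X2 core and the Y core with no exact X core, RT1-Bb the Y core alone, and Cd74 the X core alone. Each short motif is common, since 14.8% of the 33469 windows hold the Y core on either strand, 14.7% the X core and 21.2% the X2 core. An X core followed by a Y core on 1 strand, with starts 25 to 40 bases apart, stood in 39 windows, or 0.117%. On the gene's own strand it stood in 12 windows, of which 6 belong to class II genes named RT1, out of 9 such class II windows in the table. A match describes letters, and its absence says only that these exact letters are not in the window.

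**Figure D1:**
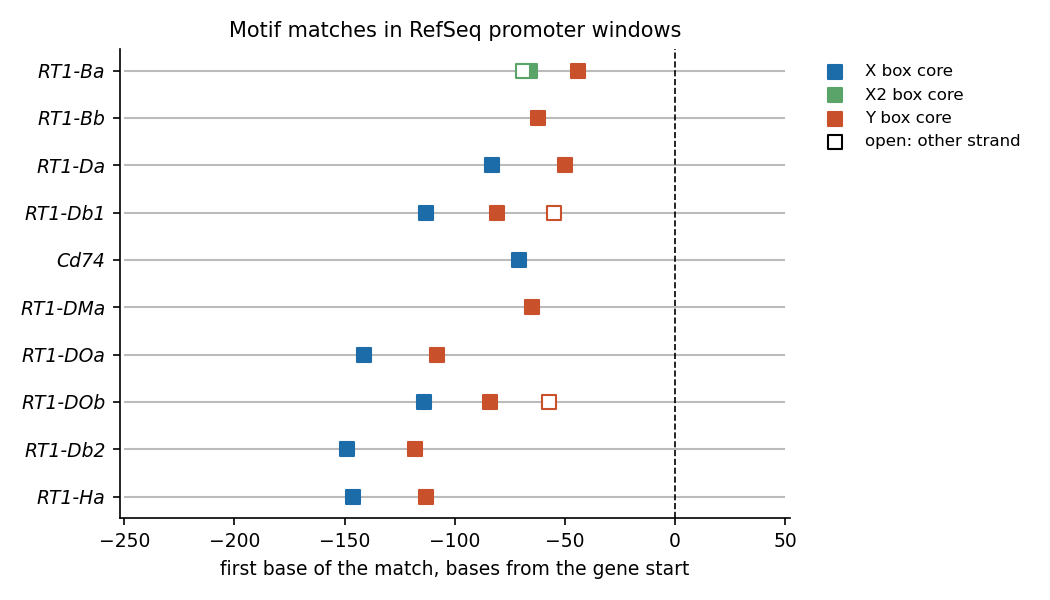
Matches to the X, X2 and Y box cores in RefSeq promoter windows of 10 class II genes, Cd74 included, drawn by the distance in bases of the match's first base from the gene start (dashed line). Filled squares are on the gene's strand and open squares on the other strand, and in RT1-Da and RT1-Db1 an X core precedes a Y core by 33 and 32 bases.

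The deposited counts summed to between 508202.6 and 520275.6 per library. These near-equal totals hide unequal depth, because the values of 3 libraries have the form of averages over 10 random draws of reads, and the replicate 1 libraries were drawn from the deepest sequencing. Genes above 0 numbered 14008 and 14105 in the replicate 1 libraries of forced activity and sleep restriction, against 11943 and 10952 in the replicate 2 libraries. Levels are given as counts per 1000000 counts (CPM) after TMM scaling, without correction for transcript length, so that levels of different genes are not ranked. In each sentence below, a group's first value is from replicate 1 and its next from replicate 2. A count of 3 in a library equals between 5.84 and 6.36 CPM. Reads of RT1 genes can fall on near copies, and the genes vary by strain, so their division among genes is uncertain.

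The class II genes and Cd74 were detected in every liver library, and none of the 5 passed the test between groups. Their summed level was 444 ± 59.4 CPM with forced activity alone and 445 ± 87.7 CPM with restricted sleep (SD, 2 libraries each). In edgeR's quasi-likelihood test the adjusted p was 0.999 for each of the 5 genes, and among all genes 1 of 4986 tested genes was called at an adjusted p under 0.05 (0.0201%). At an unadjusted p under 0.05 there was also no member, against 4.21% of all tested genes. DESeq2 and limma-voom likewise called 0 of the 5, and with each of them 0 were under 0.05 unadjusted.

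Cd74, the invariant chain, spans chromosome 18 from 56071478 to 56080849 in rn6 (ENSRNOG00000018735.7). Cd74 measured 265 and 218 CPM with forced activity alone, and 214 and 256 CPM with restricted sleep. Each group had a higher and a lower library, and the groups overlapped almost entirely. The log2 change of Cd74, sleep restriction over forced activity, was -0.04 (SE 0.21, 95% interval -0.51 to 0.43). Behind these levels stand 105.1 to 126 counts per library, the most of any of the 5 genes.

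RT1-Da, the alpha chain of the D molecule, spans chromosome 20 from 4127644 to 4132616 in rn6 (ENSRNOG00000032844.4). RT1-Da measured 90.9 and 64.3 CPM with forced activity alone, and 66.8 and 63.1 CPM with restricted sleep. Forced activity 1 stood above the other 3 libraries, which lay close together, and the groups overlapped. The log2 change of RT1-Da was -0.23 (SE 0.25, 95% interval -0.78 to 0.31). Its partner RT1-Db1, the D beta chain, spans 4087618 to 4097190 on chromosome 20 (ENSRNOG00000033215.6). RT1-Db1 measured 61.5 and 54.3 CPM with forced activity alone, and 49.3 and 61.0 CPM with restricted sleep. Its highest library was 1.25 times its lowest, close to the 1.24 times of Cd74, while the median over all tested genes was 1.50 times. The log2 change of RT1-Db1 was -0.07 (SE 0.25, 95% interval -0.61 to 0.47).

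RT1-Bb, the beta chain of the B molecule, spans chromosome 20 from 4039413 to 4049711 in rn6 (ENSRNOG00000032708.5). RT1-Bb measured 35.8 and 26.1 CPM with forced activity alone, and 25.2 and 42.7 CPM with restricted sleep. Sleep restriction held both the lowest and the highest library, so the groups overlapped. The log2 change of RT1-Bb was 0.13 (SE 0.31, 95% interval -0.56 to 0.81), on 12.4 to 21 counts per library.

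RT1-Ba, the B alpha chain, spans chromosome 20 from 4066132 to 4070721 (ENSRNOG00000000451.5) and was the most variable of the 5 genes. RT1-Ba measured 32.8 and 39.3 CPM with forced activity alone, and 27.5 and 83.4 CPM with restricted sleep. A single library, sleep restriction 2, stood high, and the other library of its group was the lowest of all. The 41 counts of RT1-Ba in sleep restriction 2 have an exact 95% Poisson interval of 59.9 to 113 CPM, which lies above the 27.5 to 39.3 CPM of the other 3 libraries. This interval covers counting error in that library only, and the other 3 libraries were set beside it without intervals of their own. For every other member the interval in sleep restriction 2 reached into the range of the other libraries. That of RT1-Bb was 26.5 to 65.3 CPM, against 25.2 to 35.8 CPM. The log2 change of RT1-Ba was 0.56 (SE 0.41, 95% interval -0.36 to 1.49). It was -0.32 without sleep restriction 2, with an adjusted p of 0.999 in edgeR. Without sleep restriction 1 it was 1.10, with an unadjusted p of 0.00422 and an adjusted p of 0.653 in edgeR. In each of these fits 1 group is a single library, assumed to vary like the other group, and sleep restriction 2 was already seen to be high.

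**Figure D2:**
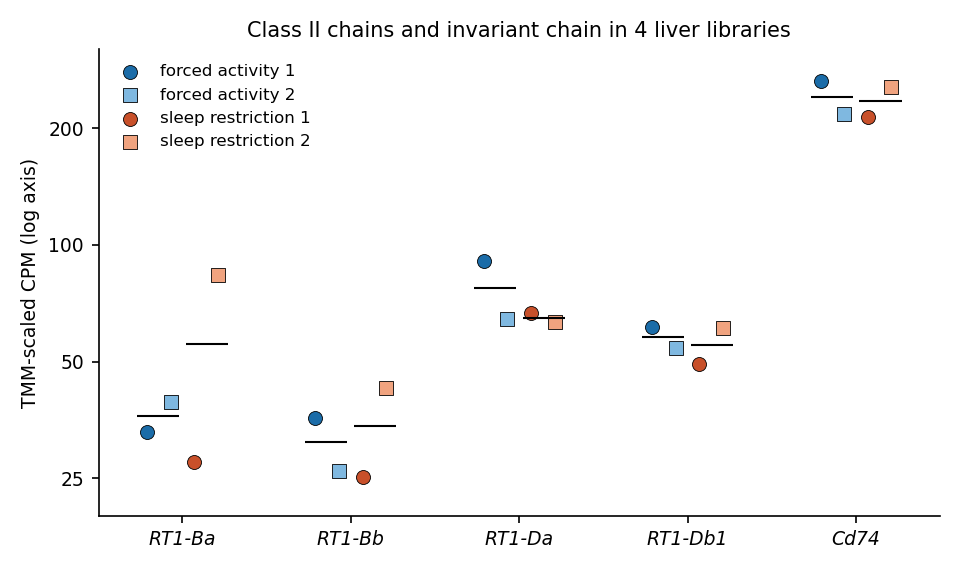
TMM-scaled CPM (log axis) of the 4 class II chains and Cd74 in each library, with circles for replicate 1, squares for replicate 2 and a line at the mean of 2 libraries per group. RT1-Ba in sleep restriction 2, at 83.4 CPM, stands away from its other 3 values, and the groups overlap for every gene.

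The groups overlapped in all 5 genes, where the groups did not overlap in 32.5% of tested genes, 17.2% with sleep restriction higher and 15.3% with it lower. The median log2 change of the 5 members was -0.04, beside a median of 0.0034 over all tested genes. Between the replicate 1 libraries all 5 members were lower under sleep restriction, with log2 differences of -0.23 for RT1-Ba, -0.44 for RT1-Bb, -0.42 for RT1-Da, -0.30 for RT1-Db1 and -0.30 for Cd74. Between the replicate 2 libraries 4 of the 5 were higher, with 1.01 for RT1-Ba, 0.63 for RT1-Bb, 0.16 for RT1-Db1 and 0.23 for Cd74, while RT1-Da had -0.03. The medians of the members were thus -0.30 and 0.23 in these pairs, against 0.0041 and 0.0091 for all tested genes. Both replicate 1 libraries were drawn from deeper sequencing than both replicate 2 libraries, and the part of depth in this difference was not tested.

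**Figure D3:**
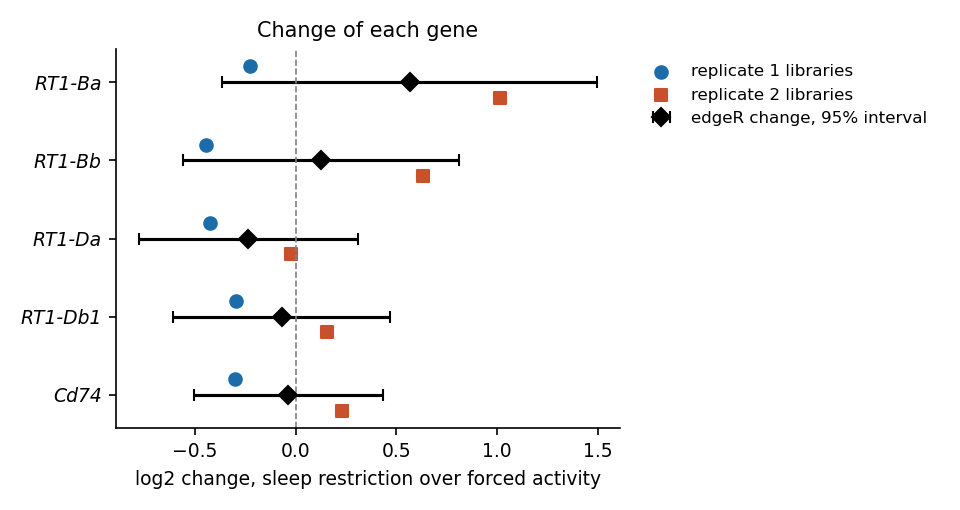
Log2 change of each gene, sleep restriction over forced activity, with edgeR's value and 95% interval (diamonds and bars) and the difference within the replicate 1 (circles) and replicate 2 libraries (squares). All 5 intervals include 0, and all 5 circles lie below 0 while 4 of 5 squares lie above it.

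The alpha chain's share within a pair was set beside the spread from counting alone. RT1-Ba took 47.8% of the counts of RT1-Ba and RT1-Bb together in forced activity 1 (exact Clopper-Pearson 95% interval 31.9 to 68.1) and 60.1% in forced activity 2 (40.7 to 75.4). In sleep restriction 1 and 2 the share of RT1-Ba was 52.1% (33.4 to 73.4) and 66.1% (53.0 to 77.7). The intervals of all 4 libraries overlapped, which does not show that the shares are equal, and a difference in the share was not tested. These intervals were computed on rounded counts, cover counting error only, and are wider than needed for the libraries whose values are averages of draws.

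RT1-Da took 59.7% and 54.2% of the D pair's counts with forced activity alone, and 57.5% and 50.8% with restricted sleep. These shares of RT1-Da lay within each other's counting intervals, which ran from 37.7 to 71.1 over the 4 libraries. The B pair, RT1-Ba and RT1-Bb, summed to 68.7 and 65.4 CPM with forced activity alone and 52.7 and 126 CPM with restricted sleep. The D pair, RT1-Da and RT1-Db1, summed to 152 and 119 CPM, then 116 and 124 CPM. The library high in the B pair was thus not high in the D pair, and the B pair made up 50.4% of all chain counts there (41.2 to 59.5). It made up 31.1% (22.1 to 40.6) and 35.6% (26.5 to 46.7) with forced activity alone, and 31.2% (21.6 to 42.4) in sleep restriction 1. The interval of sleep restriction 2 overlapped those of forced activity 2 and sleep restriction 1 but not that of forced activity 1, and this share was singled out after the values were seen.

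**Figure D4:**
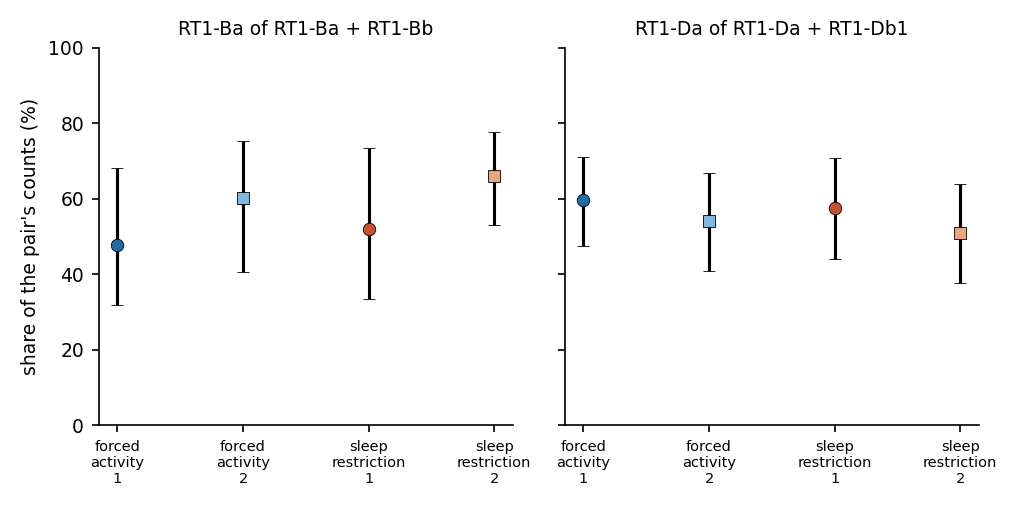
Share (%) of the alpha chain in the counts of its alpha and beta pair in each library, RT1-Ba on the left and RT1-Da on the right, with exact 95% binomial intervals that cover counting error only. RT1-Ba ranges from 47.8% to 66.1% and RT1-Da from 50.8% to 59.7%, and the intervals overlap within each panel.

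The chains were also set against their chaperone. The 4 chain genes summed to 0.835 and 0.845 of the level of Cd74 with forced activity alone, and to 0.789 and 0.976 with restricted sleep. The ratio was highest in sleep restriction 2, where RT1-Ba was high, and the groups overlapped. Without RT1-Ba the ratio was 0.711 and 0.665 with forced activity alone, and 0.660 and 0.651 with restricted sleep. Sleep restriction 2 was then the lowest library, so its high ratio rested on RT1-Ba. The groups did not overlap there, by 0.665 against 0.660, and a difference was not tested.

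The 4 chain genes lie within 93.2 kb on chromosome 20 in rn6, and no other listed gene overlaps the interval of any of the 5 members. The other class II chain genes of the region were listed with almost no counts. RT1-DMa and RT1-DMb, the chains of the peptide exchanger DM, reached at most 0.2 and 1 count in any library. RT1-DOa and RT1-DOb, the chains of its inhibitor DO, reached at most 0.6 and 1.1 counts, and RT1-Db2 at most 0.3, while RT1-Ha was listed at 0 in every library. None of these 6 genes was tested, and all lie under the 3 counts that a count of 0 allows, so no difference was detectable at this depth. RT1-DMa, RT1-Db2 and RT1-Ha are named beyond the set rule, after their values were seen.

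Genes that act around class II were read from the same fit in 6 lists of roles, which also hold the class II region genes above. Of their 50 entries in the table, 22 were tested, 8 had a higher and 14 a lower level under sleep restriction, and edgeR called 0. None had an unadjusted p under 0.05, and DESeq2 and limma-voom called 0 as well. The groups did not overlap in 4 of the 22, which is not above the 32.5% of all tested genes.

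Among the genes of transcription and induction, 10 of 19 entries were tested, 4 higher and 6 lower, with a median log2 change of -0.11. That median turned to 0.08 without forced activity 2 and to 0.06 without sleep restriction 1, and was -0.21 without forced activity 1, -0.19 without sleep restriction 2 and -0.20 with counts scaled up for the averaging over draws. Ciita, the coactivator on which class II transcription depends, had 1.4 and 2 counts with forced activity alone and 1.8 and 3 with restricted sleep. Rfx5, a subunit of the X box factor, had 4.3 and 3.8 counts, then 3.9 and 1. Both were too low to be tested, and both are named after their values were seen. Ifng, the cytokine that induces class II most strongly, was listed at 0 in every library, as were the 2 entries of the RFX subunit Rfxap. A listing at 0, here and below, is not read as absence of expression, and the part of the counting or the gene models in it was not tested.

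Jak1, a kinase at the receptor for the product of Ifng, measured 180 and 156 CPM with forced activity alone, then 201 and 185 CPM with restricted sleep, a log2 change of 0.20 with groups that did not overlap. Irf2, an interferon regulatory factor, measured 37.9 and 49.7 CPM, then 39.5 and 52.9 CPM. The groups of Irf2 overlapped.

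In the list of invariant chain and antigen processing, 10 of 11 entries were tested, 4 higher and 6 lower, with a median log2 change of -0.05 and a range of -0.30 to 0.04. The median was -0.27 without sleep restriction 1, 0.06 without sleep restriction 2 and -0.09 without forced activity 1. Ctss, the cathepsin known for the last steps of invariant chain trimming in antigen-presenting cells, measured 29.0 and 41.9 CPM with forced activity alone and 38.7 and 32.6 CPM with restricted sleep, and is named after its values were seen. Ctsl, a cathepsin with the same substrate in thymic epithelium, measured 637 and 723 CPM, then 777 and 608 CPM. Ctsb, a lysosomal cysteine protease, measured 458 and 444 CPM, then 428 and 431 CPM, so that its groups did not overlap at a log2 change of -0.07. Ctsh, another such protease, measured 260 and 252 CPM, then 267 and 167 CPM. Ctsh and Ctsl were both lowest in sleep restriction 2, where RT1-Ba was highest. This was seen after the values were known, and a relation was not tested. As background, these proteases also serve general lysosomal turnover in hepatocytes.

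Cd74 is also the surface receptor for Mif, with Cd44, Cxcr2 and Cxcr4 as partners. None of the 4 was tested. Mif was listed at 0 in every library, Cd44 had 1.5 and 2 counts with forced activity alone and 2.2 and 1 with restricted sleep, and Cxcr4 had 1.3 and 2.6, then 2.1 and 6. Of the costimulatory ligands only Icoslg was tested, at 46.2 and 16.9 CPM with forced activity alone and 37.2 and 20.3 CPM with restricted sleep, a log2 change of -0.13. Leaving out each library in turn moved this value of Icoslg from -0.64 without forced activity 2, and -0.55 without sleep restriction 1, to 0.19 without sleep restriction 2 and 0.59 without forced activity 1. Cd86 had 1.3 and 1.5 counts, then 1.2 and 0. Of the class I processing genes that share the class II region, only Tapbp was tested, at 32.6 and 28.2 CPM, then 27.7 and 20.3 CPM, a log2 change of -0.23. Without forced activity 1, Tapbp was again the only one tested, at -0.14. Without sleep restriction 1, forced activity 2 or sleep restriction 2, 2 genes of this list were tested, with medians of -0.99, -0.64 and -0.20.

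In whole liver, fewer cells of a type and less RNA per cell cannot be told apart, so markers of the cells that carry class II were read beside it. The 15 macrophage markers, of which 13 were tested, summed to 773 and 1061 CPM with forced activity alone, and to 1236 and 857 CPM with restricted sleep. The tested ones had a median log2 change of 0.18, 10 higher and 3 lower, and Timd4 was listed at 0. Clec4f, a lectin of Kupffer cells, measured 144 and 221 CPM, then 215 and 201 CPM, and C1qa, a complement subunit made by macrophages, 108 and 135 CPM, then 158 and 106 CPM. The endothelial markers, 9 of them tested, summed to 191 and 655 CPM, then 559 and 330 CPM, with a median log2 change of 0.07.

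In 10 of 13 tested macrophage markers and 9 of 9 tested endothelial markers, forced activity 2 stood above 1 and sleep restriction 1 above 2. Class II ran the other way in 3 of its 5 members, RT1-Bb, RT1-Db1 and Cd74, with forced activity 2 below 1 and sleep restriction 1 below 2. The summed level of the 5 members was 486 and 402 CPM with forced activity alone, and 383 and 507 CPM with restricted sleep. It was 0.629 and 0.379 of the macrophage sum with forced activity alone, and 0.310 and 0.591 with restricted sleep. This comparison was chosen after the values were seen, and the part of cell makeup or depth in it was not tested. The share of all tested genes in either order was not computed, so these counts do not show an unusual opposition.

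**Figure D5:**
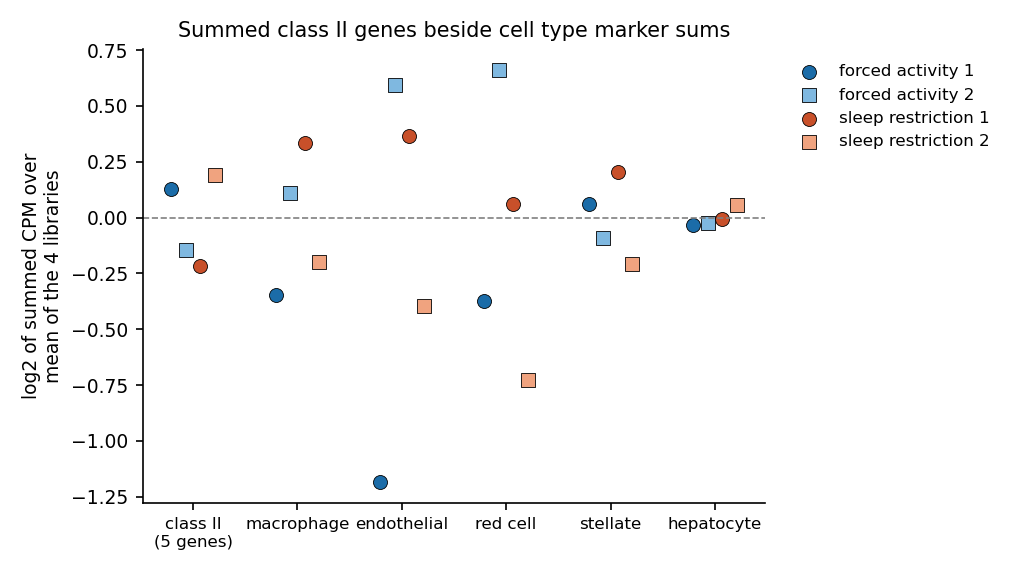
Log2 of the summed CPM of the 5 class II genes and of 5 marker lists in each library, relative to the mean of the 4 libraries, with circles for replicate 1 and squares for replicate 2. Forced activity 1 and sleep restriction 2 are the upper libraries of the class II sum (486 and 507 CPM) and the lower ones of the macrophage (773 and 857 CPM) and endothelial sums (191 and 330 CPM).

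Other cells that present antigen left few counts. The 10 dendritic cell markers, none of them tested, summed to 11.4 and 9.5 counts with forced activity alone and 9.1 and 10 with restricted sleep, and Flt3, the receptor on which these cells depend, had 1.9 and 0.6, then 1.4 and 2. The 8 B cell markers summed to 3.9 and 8.6 counts, then 6.6 and 8, with Pax5 listed at 0. Among them Ms4a1, the surface protein CD20, had 0 and 0 counts, then 0.6 and 2. The 8 T cell markers summed to 10.6 and 14.8 counts, then 13.9 and 9, of which Cd4, also carried by rat macrophages, gave 7.8 and 8.6, then 10.8 and 8. The part of B or dendritic cells in the RT1-Ba level of sleep restriction 2 was not tested, at counts this low. Hepatocyte markers checked the tissue, and their 6 tested genes had a median log2 change of 0.01, 4 higher and 2 lower. In the lower ones, Apoa1 and Ttr, which encode an apolipoprotein and a thyroid hormone carrier, the groups did not overlap, and the log2 changes were -0.56 and -0.28. Apoa1 had an unadjusted p of 0.0175 and an adjusted p of 0.999 in edgeR, and both are named after their values were seen. Among all tested genes the groups did not overlap in 32.5%, and 4.21% had an unadjusted p under 0.05 in edgeR. These 2 markers are therefore not read as a change of hepatocytes.

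The gene pattern nearest to the class II genes was sought over the 4 libraries, as the smallest root-mean-square distance of centred log2 CPM to the members' mean profile. That profile was 0.09 and -0.12 with forced activity alone, and -0.25 and 0.28 with restricted sleep. Of 4981 other tested genes, Mark3, a protein kinase, was nearest at a distance of 0.0131, with 57.0 and 49.1 CPM, then 43.6 and 65.1 CPM. Next came Ust5r at 0.0204, Pros1, the anticoagulant protein S, at 0.0243, Psme1, a proteasome activator subunit, at 0.0250, Evi5 at 0.0251 and Sfmbt1 at 0.0291. Within a distance of 0.1 there were 129 genes, or 2.59% of those compared. The members themselves lay between 0.0905 and 0.413 from their mean profile.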

How the data were processed

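Messenger RNA from rat liver was sequenced in 4 libraries. The authors deposited estimated counts for each Ensembl gene in a single file. The submitters' processing notes name CASAVA, STAR 2.4.1d and build rn6. For the counting step, no program is given in the sources used here, and the table's own name marks sense-strand counts averaged over 10.

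All values are multiples of 0.1, and 1 library holds whole numbers at 32544 of 32545 genes. The share of reads kept per draw, estimated from the low values, was 0.59 for forced activity 2 and 0.01 to 0.07 for both replicate 1 libraries. An alternative, called effective counts, multiplies these libraries by 1.58 and 6.13. The 16 entries without a symbol held 0.0437% to 0.0563% of counts and were kept under their identifiers.

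Rounded counts went into edgeR 4.0.16 (R 4.3.3) with TMM factors (0.972, 1.04, 1.00 and 0.989 for forced activity 1 and 2 and sleep restriction 1 and 2), filterByExpr with a minimum count of 10, robust quasi-likelihood fits and p-values adjusted by Benjamini-Hochberg over the 4986 genes kept, called at an adjusted p under 0.05. Log2 changes carry a prior count of 2. Their standard error is the change divided by the root of F. Alternatives used DESeq2 1.42.0 and limma 3.58.1. The test was checked on 10 simulated data sets with 200 changed genes each. It recovered 33.9% of 2-fold changes and 82.1% of 4-fold changes. The simulated counts had the same dispersion for every gene and no averaging over draws, unlike the deposited ones. The recovery is pooled over tested genes of all levels and is not that at the members' counts.

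The members, lists, tests and alternatives were chosen with earlier results of these data known. Named genes are the 5 members, the up to 3 highest by mean count of each list, and the 6 nearest in pattern. Some genes that this rule names are left out here. Others are said to be named after their values were seen, apart from genes listed at 0. GRCr8 served for promoter windows and gene order only.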

Additional observations from a re-analysis of the deposited data

How the results depend on the processing

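The shares, ratios, marker sums, group overlaps and nearest genes were not recomputed. The number of genes called, the members' changes and the calls and medians of the role lists were recomputed under 17 alternatives. No class II member and no gene of the role lists was called under any of them, and the smallest adjusted p among 85 member values was 0.653. Among all genes 1 was called. The count was 5 without a gene filter, 0 with a filter of 1 CPM in 2 libraries, 2 with DESeq2, 0 with limma-voom, 0 without robust estimation, 2 with effective counts, and 0 to 0 when each library was left out. With the replicate number as a block it was 5. In that blocked fit RT1-Ba had a log2 change of 0.58 (adjusted p 0.834, edgeR). No label ties a replicate number to an animal or a day, and with 2 numbers the correlation of same-numbered deviations over tested genes, 0.21, does not settle it.

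The sign of each member depended on single libraries. Leaving out each library in turn, the log2 change ran from -0.32 to 1.10 for RT1-Ba, from -0.28 to 0.43 for RT1-Bb, from -0.47 to 0.02 for RT1-Da, from -0.23 to 0.07 for RT1-Db1 and from -0.18 to 0.11 for Cd74. Without forced activity 1, RT1-Da, RT1-Db1 and Cd74 turned to 0.019, 0.011 and 0.11. Without sleep restriction 1, RT1-Db1 and Cd74 turned to 0.065 and 0.078. RT1-Bb was -0.096 without forced activity 2 and -0.28 without sleep restriction 2, and RT1-Ba was -0.32 without the latter. With effective counts RT1-Bb was -0.086. The median of the members ran from -0.23 to 0.11. Counts of 12.4 to 41 limit the precision of both B chains.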

Other observations

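In rn6 the interval of RT1-DMb starts 1.2 Mb beyond the end of RT1-DOb. Among the RT1 class II genes alone, RefSeq's order in GRCr8 places RT1-DMb and RT1-DMa next after RT1-DOb and before RT1-DOa. Both DM genes were nearly empty in these libraries, although RT1-Da, RT1-Db1 and Cd74 each had at least 24.2 counts in every library. The low DM counts were noticed after the values were seen, and the part of the gene models or of the read division in them was not tested.

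The red cell markers, whose alpha and beta globin genes mark blood left in the tissue, summed to 866 and 1778 CPM in forced activity 1 and 2 and to 1171 and 680 CPM in sleep restriction 1 and 2. They were lowest in sleep restriction 2, the library in which RT1-Ba was highest. They were highest in forced activity 2, where RT1-Ba was next highest at 39.3 CPM. A relation between the red cell markers and RT1-Ba was not tested. The stellate cell markers summed to 674 and 606 CPM, then 746 and 560 CPM, with Col1a2 listed at 0. The neutrophil markers summed to at most 1.5 counts in any library, with Mpo and Camp listed at 0.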
